A study of Mus musculus with 2 samples.

Results

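Immunity-related GTPases are large interferon-inducible proteins that let a cell defend itself against microbes living in vacuoles inside it. The genes described are Irgm1, Irgm2, Igtp, Iigp1, Ifi47 and Tgtp1, measured on 2 Affymetrix expression arrays of cultured mouse CD4 T cells. Members were the probe sets that the platform annotation gives to exactly 1 gene with one of these 6 symbols or a synonym. On such an array several short probes to the same transcript make up a probe set, read out as a single signal. By this rule 6 of 45037 probe sets were found, for 5 genes of the 18193 named. Iigp1 had 2 of them, and Irgm1, Irgm2, Igtp and Ifi47 had 1 each. Tgtp1 had no probe set of its own here: 1 further probe set was assigned to Tgtp1 and Tgtp2 together and is given apart, as shared.

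Both groups were CD4 T cells from spleens of C57BL/6 mice, sorted to a purity above 98% and stimulated for 2 days with immobilised antibody to the T cell receptor and with antibody to CD28. They were then cultured for 3 more days. For the CD103+ Th1 group 3 ng/ml IL-4, 10 ng/ml IFN-γ and 3 ng/ml TGF-β were added. For the Th1 group 1 ng/ml IL-12 and 1 μg/ml of 11B11, an antibody to IL-4, were added. With a single array in each group, differences could not be checked against replicates, and neither a test nor a p-value is given. The number of mice behind each culture is not stated.

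Signals were linear, in arbitrary units, with a median of 78.0 and a highest value of 36373 in CD103+ Th1, against 78.8 and 36496 in Th1. The median over both arrays, 78.5, served as a floor: lower signals were set to it, genes below it in both cultures got no ratio, and for genes below it in only one culture the fold is a bound ("at least"). By this rule 11194 genes were measured, each by its brightest probe set, and their median log2 ratio of CD103+ Th1 over Th1 was -0.03. The T cell markers Cd3e, Cd3d, Cd3g, Cd4, Cd5, Cd28 and Zap70 were all measured, with log2 ratios from -0.20 to 0.42.

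These GTPases form 2 functional classes. The regulators Irgm1, Irgm2 and Igtp (also called Irgm3) carry a methionine in place of the usual lysine in the nucleotide-binding loop, sit on the cell's own membranes and keep the other class inactive there. The effectors Iigp1 (Irga6), Ifi47 (Irgd) and Tgtp1 (Irgb6) have the usual lysine and load onto the vacuole around parasites such as Toxoplasma, which then breaks up. IFN-γ induces both classes in most cell types, through STAT dimers that bind GAS elements and through interferon regulatory factors that bind ISRE elements. In CD4 T cells Irgm1 is also known to protect against cell death driven by IFN-γ.

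The promoters of Irgm2, Igtp and Tgtp1 held both kinds of element side by side, and stretches of them are shown for that reason, beside those of Irgm1 and of related genes. Sequences are from RefSeq on build GRCm38.p6, in windows of 300 bases that run from 250 bases before the transcription start to 50 after it. Windows were matched for Irgm1, Irgm2, Igtp, Tgtp1 and Ifi47 and for the related genes Tgtp2 and Gm12185, but not for Iigp1. Each stretch below has 60 bases, 5′ to 3′ on the gene's own strand. Capitals mark matches to GAAANNGAAA, the core of an ISRE, and to TTCNNNGAA, the core of a GAS element, both searched on both strands.
Irgm1 (minus strand, chr11:48871419-48871478): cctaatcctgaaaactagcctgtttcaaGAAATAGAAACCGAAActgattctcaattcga
Irgm2 (plus strand, chr11:58214879-58214938): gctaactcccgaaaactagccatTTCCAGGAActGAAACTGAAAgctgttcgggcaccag
Igtp (plus strand, chr11:58199488-58199547): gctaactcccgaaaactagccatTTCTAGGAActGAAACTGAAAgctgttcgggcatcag
Tgtp1 (minus strand, chr11:48992298-48992357): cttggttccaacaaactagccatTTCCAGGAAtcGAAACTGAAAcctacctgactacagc
Tgtp2 (minus strand, chr11:49064257-49064316): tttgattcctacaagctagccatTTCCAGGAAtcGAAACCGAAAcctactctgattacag
Gm12185 (minus strand, chr11:48927232-48927291): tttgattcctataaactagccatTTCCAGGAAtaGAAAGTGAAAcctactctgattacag

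In Irgm2, Igtp, Tgtp1, Tgtp2 and Gm12185 the GAS-type match lay 2 bases before the ISRE-type match. The ISRE-type match ended 24 bases before the start in Igtp, 54 in Irgm2, 60 in Tgtp2, 65 in Gm12185 and 67 in Tgtp1. Irgm1 had 2 overlapping ISRE-type matches, the nearer one ending 14 bases before the start, and no GAS-type match. The Ifi47 window held neither set of letters. These positions are drawn in the map of motif matches. A match is a description of the letters and not a measured binding site.

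**Figure D1:**
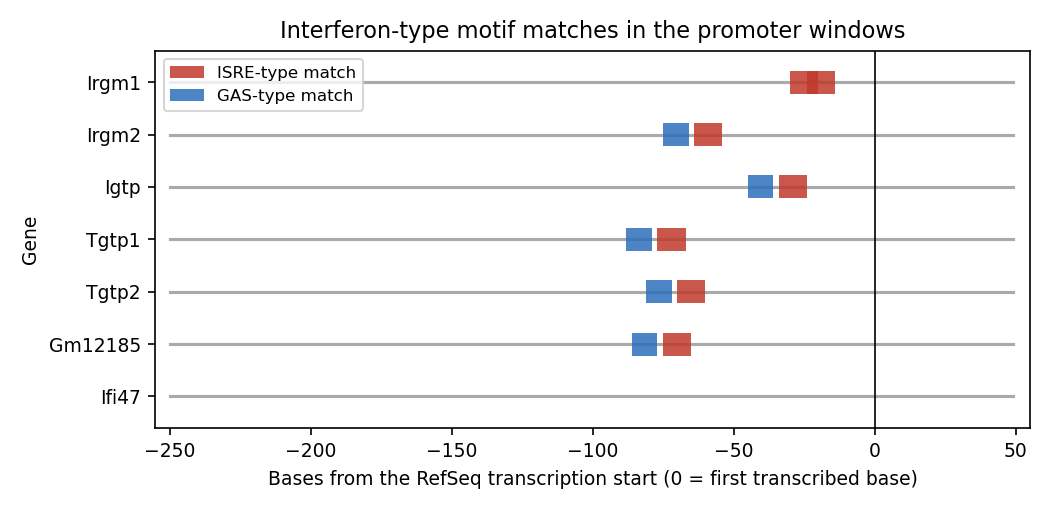
Matches to the ISRE-type letters (red) and GAS-type letters (blue) along the promoter windows of 7 genes, with the distance from the RefSeq transcription start in bases on the x axis and 1 gene per line. In 5 genes a GAS-type match stands 2 bases before an ISRE-type match, Irgm1 has 2 overlapping ISRE-type matches, and Ifi47 has none.

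The motif alone was not rare, but the pair was. The ISRE-type letters occurred in 3.44% of 32851 promoter windows and the GAS-type letters in 8.30%. Both within 10 bases of each other occurred in 43 windows, 0.131%, of which 5 belonged to the 7 windows of this family. The stretches of Igtp and Irgm2 shared 58 of 60 bases, and those of Tgtp2 and Gm12185 shared 55. Counted from 1 at the 5′ end of the stretch and written with the Igtp base first, the differences between Igtp and Irgm2 were T27C, inside the GAS-type match, and T57C.

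On the arrays, all 5 genes with an own probe set had higher signals in CD103+ Th1 than in Th1, and Irgm1, Irgm2, Iigp1 and Ifi47 were at least 2-fold higher. Over all measured genes 47.4% had a ratio above 1, 5.08% were higher by 2-fold or more and 4.90% lower by 2-fold or more. The median log2 ratio of the 5 genes was 1.90, a 3.72-fold difference, with a range from 0.48 to 3.97. With the shared probe set counted as a further gene the median was 1.94. In cultures measured in bulk, more cells that carry a transcript and more transcript per cell cannot be told apart.

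The regulators differed from one another. Irgm1, which guards the cell's own membranes and is needed for T cell survival under IFN-γ, read 6363 in CD103+ Th1 against 982 in Th1. It was thus 6.48-fold higher in CD103+ Th1 (log2 ratio 2.70). Irgm2, a regulator found mainly at the Golgi, had signals of 3983 and 1070. Its fold of 3.72 (log2 ratio 1.90) lay 0.80 below that of Irgm1 on the log2 scale.

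Igtp, the regulator at the endoplasmic reticulum and on lipid droplets, was the exception. It read 22998 in CD103+ Th1 against 16442 in Th1, 1.40-fold higher (log2 ratio 0.48) and under the 2-fold threshold. The Igtp signal was thus high in both cultures: 0.333% of all probe sets were brighter in CD103+ Th1 and 0.679% in Th1. Its log2 ratio lay 1.41 below that of Irgm2, its neighbour with a nearly identical promoter stretch. Of 124 other measured genes at least as bright as Igtp in Th1, none was 2-fold higher. Their highest log2 ratio was 0.27 and their median -0.08, both below the 0.48 of Igtp. The highest signal of any probe set in CD103+ Th1 was 36373. Genes this bright in Th1, Igtp among them, thus had little or no room for a 2-fold higher signal. Choosing genes by a high Th1 signal also favours low ratios. Whether signals near the top of the scale are compressed was not tested.

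The effectors included the gene with the largest difference. Iigp1, which coats parasite vacuoles early, read 15071 in CD103+ Th1 against 959 in Th1 on its brighter probe set, 15.7-fold higher (log2 ratio 3.97). Its other probe set had 8562 and 395, 21.7-fold higher (log2 ratio 4.44). Both probe sets showed the same direction and differed by 0.46 on the log2 scale. For scale, over the 2716 genes with exactly 2 probe sets above the floor on both arrays, such differences had a median of 0.24 and a 90th percentile of 0.74.

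Ifi47, another effector, had signals of 12249 and 3571, 3.43-fold higher in CD103+ Th1 (log2 ratio 1.78). Its ratio lay 0.12 below that of Irgm2, which is less than the median difference between 2 probe sets of 1 gene. The probe set shared by Tgtp1 and Tgtp2, near-identical copies that lie in 1 cluster, had 18007 and 4559, 3.95-fold higher (log2 ratio 1.98). It cannot be said which of the copies gave this signal. The plot of member signals shows all 7 probe sets.

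**Figure D2:**
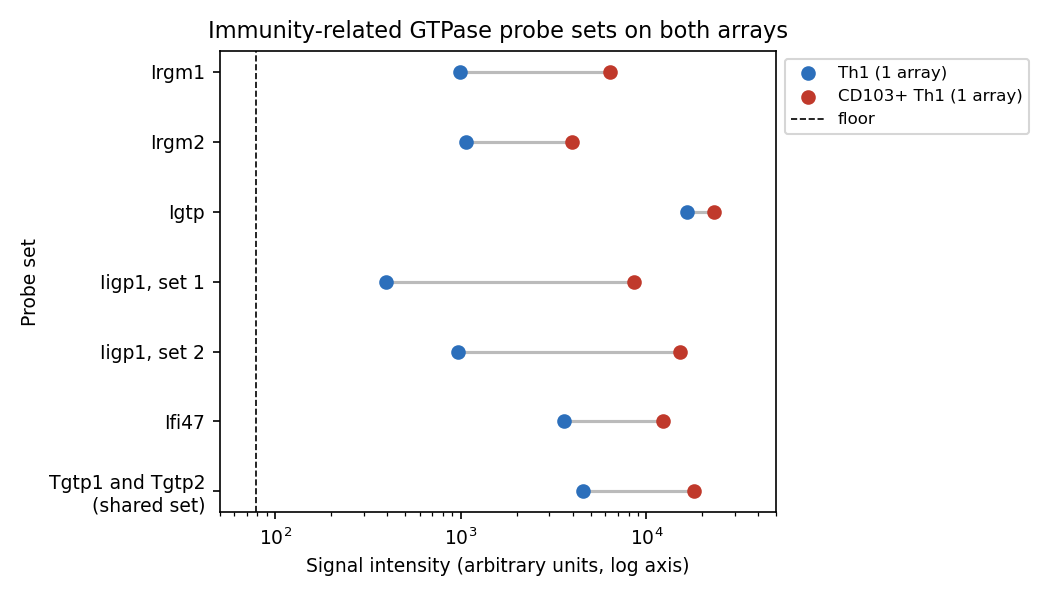
Signal intensity in arbitrary units on a log axis for the 6 own probe sets and the shared one, with 1 point per array: Th1 in blue, CD103+ Th1 in red, and the floor of 78.5 as a dashed line. All red points lie to the right of the blue ones, from 16442 to 22998 for Igtp and from 395 to 8562 for the first Iigp1 set.

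In the order of log2 ratios Iigp1 came first, followed by Irgm1, the shared Tgtp1 and Tgtp2 set, Irgm2, Ifi47 and Igtp. The gap from Iigp1 to Irgm1 was 1.28 and that from Irgm2 to Igtp 1.41, both above the 90th percentile of differences between probe sets of 1 gene. Neighbours within the group formed by the shared set, Irgm2 and Ifi47 differed by 0.08 and 0.12. With 1 array per group the spread between cultures is unknown, so these gaps are compared only with the disagreement between probe sets. Neither functional class stood wholly above the other: the regulators ran from 0.48 to 2.70 and the effectors with an own probe set had 1.78 and 3.97.

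Among 11194 measured genes ranked from the highest ratio down, Iigp1 was at position 14, Irgm1 at 50, Irgm2 at 128 and Ifi47 at 147. Igtp was at position 1771, within the top 15.8%. At a threshold of 4-fold, 2 of the 5 genes were higher, Iigp1 and Irgm1, against 0.974% of all measured genes. The histogram of ratios shows where the members lie.

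**Figure D3:**
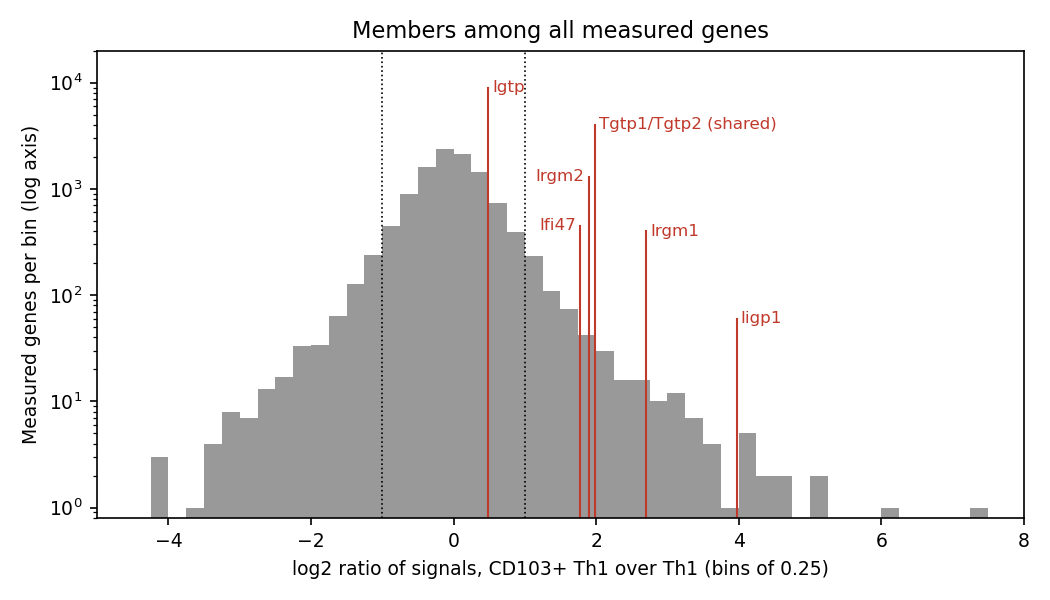
Number of measured genes (log axis) per bin of 0.25 of the log2 ratio of CD103+ Th1 over Th1, with the members as red lines and 2-fold as dotted lines. Igtp at 0.48 lies inside the bulk of genes, while Ifi47, Irgm2, the shared set, Irgm1 and Iigp1 lie to the right of the 2-fold line.

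The genes whose ratio was most like the members' median were found among genes above the floor on both arrays, with the brighter signal at least 4 times the floor, with all probe sets in 1 direction. The 8 nearest were Max, Ypel3, Hip1r, Klrd1, Tsc22d3, Lax1, Nipal1 and Socs3, with log2 ratios from 1.88 to 1.92. Likeness here is the absolute difference from the median over 2 arrays, which was at most 0.025, and 2 arrays cannot show that genes vary together. Of these, Socs3, an inhibitor of cytokine signalling, belongs to the pathway described below.

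Related GTPases outside the 6 members were also higher. Gm4951, in the cluster with Iigp1, read 3050 in CD103+ Th1 against 252 in Th1, 12.1-fold higher (log2 ratio 3.60, and 2.69 with the floor at the 75th percentile of signals). Gm12185, in the cluster with Irgm1 and Ifi47, had 307 and 136, 2.26-fold higher, and lay under that higher floor. Irgq, a distant relative thought not to bind nucleotide in the usual way, had 373 and 208, a 1.79-fold difference that missed the threshold. Irgc1, which is known from testis, was under the floor on both arrays. Of 17 symbols listed for such relatives, some of them synonyms, 4 had an own probe set here and 3 were measured, with a median log2 ratio of 1.18. With the floor at the 75th percentile Gm4951 alone was measured.

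The guanylate-binding proteins, the other large family of GTPases induced by IFN-γ, split. Of 7 measured genes in the list with the Mx proteins, 3 passed 2-fold upward and none downward, with a median log2 ratio of 0.54. Without the probe sets whose names carry a suffix letter, which marks probes that can match several transcripts, 5 were measured, 3 passed 2-fold upward and the median was 1.46. Gbp6 had signals of 7312 and 2389, 3.06-fold higher, and its 2 probe sets gave 1.60 and 1.61 on the log2 scale. Gbp2 had 13659 and 4974, 2.75-fold higher, and Gbp2b was at least 2.78-fold higher, with 218 against 31.0. The other 3 measured genes of the family were under 2-fold: Gbp8 had a log2 ratio of 0.54, Gbp7 0.12 and Gbp3 0.05. Gbp4 had only a probe set shared with Gbp8, under the floor on both arrays (5.88 and 5.34).

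Gbp7 had signals of 6463 and 5943 and Gbp3 1660 and 1605, so the signals of both arrays lay close together. The antiviral gene Mx1 had 179 and 190, a log2 ratio of -0.09, and Mx2 was under the floor. A probe set shared by Gvin1, a very large inducible GTPase, and Gm4070 was 2.34-fold higher, with 15870 and 6771. None of 8 measured dynamin-type GTPases that are not induced by interferon was 2-fold higher, against 5.08% of all measured genes, so that a list this short may well hold none. Their median was -0.07, and Dnm1 was at least 6.31-fold lower, with 77.1 against 495.

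The ligand and its receptors went in opposite directions. Ifng, the gene of IFN-γ itself, read 529 in CD103+ Th1 against 5711 in Th1, a log2 ratio of -3.43, while IFN-γ had been added to the CD103+ Th1 culture. Among type I interferon genes Ifnb1, Ifna2 and Ifna4 were under the floor on both arrays, and Ifna1 had 85.9 and 49.1, at least 1.09-fold higher. Ifngr2, the signalling chain of the IFN-γ receptor, had 920 and 115, a log2 ratio of 3.00. Its probe sets gave 1.51 and 3.00, and with the floor at the 75th percentile the ratio was 0.96, under 2-fold. The ligand-binding chain Ifngr1 had 5922 and 3796, 1.56-fold higher.

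All 9 measured genes of the receptor and JAK-STAT list had log2 ratios above 0 on their brightest probe set, with a median of 0.58, and 2 were at least 2-fold higher (1 with the floor at the 75th percentile or with the probe set of smallest absolute ratio). Besides Ifngr2 this was Jak2, the kinase bound to it, with 2994 and 1149, 2.61-fold higher. The second Jak2 probe set gave 0.65, under 2-fold. The type I receptor genes Ifnar1 and Ifnar2 had log2 ratios of 0.51 and 0.58. Jak1 had 0.56, Tyk2 0.11, Stat2 0.84 and Stat3 0.57, and 1 of the 4 Stat3 probe sets pointed down, at -0.27.

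Of the interferon regulatory factors and class transactivators, 5 of 10 measured genes passed 2-fold upward and none downward by brightest probe set. The median was 0.97. The count was 3 with the floor at the 75th percentile or with the probe set of smallest absolute ratio. Without suffixed probe sets 6 genes were measured, 1 of them, Irf8, passed and the median was 0.19. Irf1, Irf7 and Irf9 had no other probe set and were among the genes left out. Ciita, described below, was no longer among those that passed. Irf1, the first factor made in response to IFN-γ and a binder of ISRE elements, had 8668 and 1966, 4.41-fold higher. Irf7 had 930 and 269, 3.46-fold higher, and Irf9, which joins STAT proteins in the ISGF3 complex, had 3064 and 957, 3.20-fold higher. Irf8 had 4925 and 1495, 3.29-fold higher, with its other probe set at 0.72. The Irf7 ratio was 0.98 with the floor at the 75th percentile.

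Ciita, the class II transactivator, was at least 2.09-fold higher, with 164 against 21, and its other measured probe set gave 0.06. Nlrc5, the class I transactivator, had a log2 ratio of 0.88, Irf2 0.81 and Irf3 0.16. Irf4 and Irf5 had -0.26 and -0.63, and Batf2 was under the floor. The other Irf4 probe set gave -1.05, past 2-fold downward, and the other Irf5 set 0.18. Not all factors of this group were thus higher in CD103+ Th1.

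Among 8 measured feedback inhibitors 1 was at least 2-fold higher, Socs3, with 6108 and 1612, 3.79-fold. Its 3 probe sets ranged from 1.45 to 2.18. Socs1, the main inhibitor of IFN-γ signalling, had 3440 and 1797, a log2 ratio of 0.94 that just missed the threshold. Cish had 0.73, Ptpn6 0.48, Pias1 0.46, Ptpn11 0.31 and Usp18 0.06, and the phosphatase gene Ptpn2 had -0.47. The median of the list was 0.47.

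Class I antigen processing genes, which IFN-γ also induces, differed far less than the GTPases other than Igtp. On their brightest probe set all 10 measured genes had log2 ratios above 0, but none reached 2-fold, and the median was 0.33. The H2-D1 probe sets ran from -0.23 to 0.72, and those shared by H2-T23 and H2-T-ps had -0.50 and 0.54. In Th1 the measured genes had signals from 2204 (Tap2) to 23275 (B2m), and compression of the highest signals was not tested. The highest signal of any probe set in CD103+ Th1 was 36373. The brightest of these genes, B2m among them, could thus not have been 2-fold higher without exceeding it. Tapbp (0.86), Tap1 (0.74), Psmb10 (0.74) and Tap2 (0.60) had the largest ratios, and B2m, with signals of 26660 and 23275, had 0.20. Over the 6 lists of guanylate-binding and Mx proteins, receptors, factors, inhibitors, ligands and class I genes together, which hold none of the immunity-related GTPases, 11 of 46 measured genes passed 2-fold upward and 1, Ifng, downward, against 5.08% and 4.90% of all measured genes. The upward count was 7 with the floor at the 75th percentile or without suffixed probe sets, and both settings left fewer of these genes measured.

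Autophagy proteins of the ATG5 conjugation system guide these GTPases to the vacuole. Of 12 measured genes of that system none differed by 2-fold, 6 had ratios above 0 and 6 below, and the median was -0.02. Over all measured genes 5.08% were 2-fold higher and 4.90% lower, so that a list this short may well hold none. Without suffixed probe sets 1 of 11 genes of the system passed 2-fold upward. Atg16l2 (-0.64), Gabarapl2 (0.63), Atg10 (0.50) and Map1lc3b (0.48) had the largest absolute ratios. Genes of autophagy initiation and ubiquitin adaptors had a median of 0.42. On their brightest probe set all 13 measured were above 0 with none at 2-fold, against the same 5.08%. Other probe sets of Atg13 and Rb1cc1 reached 1.08 and 1.02, and those of Becn1 and Wipi2 went down to -0.03 and -0.05. By brightest probe set Calcoco1 (0.91), Traf6 (0.79), Trim21 (0.58) and Nbr1 (0.56) led the list. The reference genes had a median of -0.12 over 7 measured, with Gusb 2.06-fold lower.

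**Figure D4:**
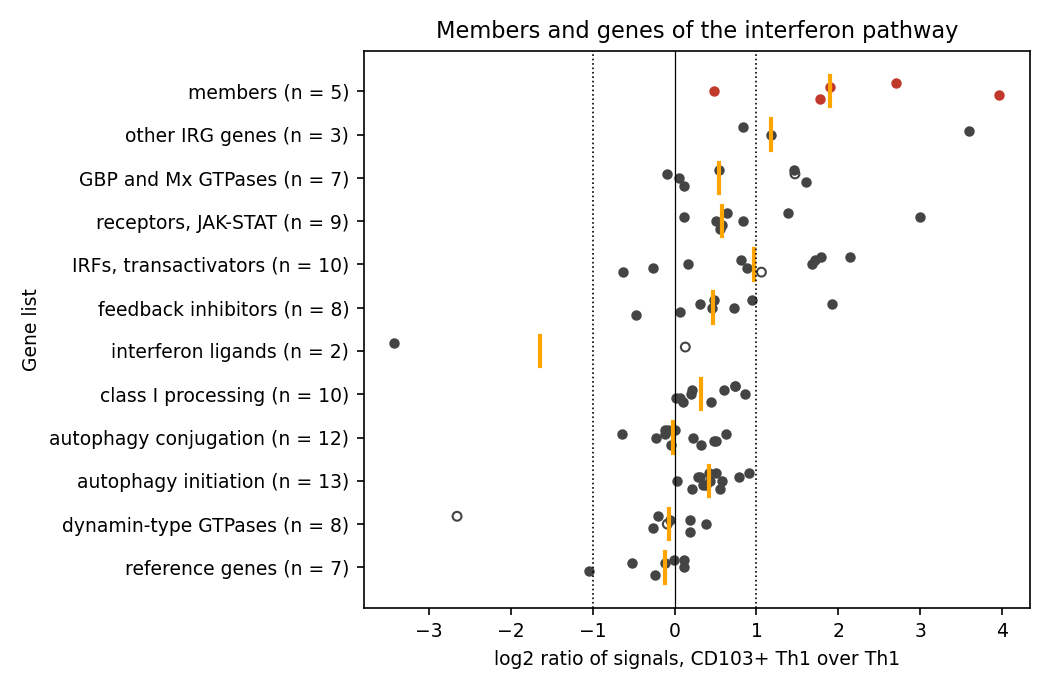
Log2 ratios of CD103+ Th1 over Th1 for the 5 members with an own probe set (red) and the measured genes of 11 lists (grey), 1 point per gene, with open circles for bounds, orange bars for list medians and dotted lines at 2-fold. The median is 1.90 for the members, 1.18 for other family genes, 0.54 for guanylate-binding and Mx proteins, 0.33 for class I genes and -0.12 for reference genes.

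Genes whose promoter window held the ISRE-type letters were described in the same way. Of 338 such measured genes 40, or 11.8%, passed 2-fold upward, against 4.95% of the 9128 measured genes with a window, and 13 (3.85%) were at least 2-fold lower. Without the GTPases of the family 37 of 334 were higher, 11.1%. For the GAS-type letters 47 of 748 were higher, 6.28%, and 36 (4.81%) lower. Without the family 45 of 745 were higher, 6.04%. The pair within 10 bases was found in 16 measured genes. Of these, Irgm2 (log2 ratio 1.90), Parp11 (1.35) and Gm12185 (1.18) passed 2-fold upward, 18.8%, and Serpinb6a (-1.02) downward. Irf2 (0.81), Ifitm3 (0.72), Igtp (0.48), Bst2 (0.41) and Myd88 (-0.20) carried the pair as well, so it occurred with ratios of either sign. Without the family 13 genes with the pair were left, 1 of them higher (7.69%) and 1 lower. So short a list cannot be told apart from the 4.95% of all measured genes with a window.

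The members lie in 3 clusters of the gene table. Irgm1, the Tgtp genes and Ifi47 share a cluster of 9 protein-coding genes on chromosome 11, which also holds the proteasome activator gene Psme2b, Igtp and Irgm2 lie side by side elsewhere on chromosome 11, and Iigp1 lies with 3 relatives on chromosome 18. Of the 3 protein-coding genes on each side of every cluster, 9 of 18 were measured and none differed by 2-fold. Over all measured genes 5.08% were 2-fold higher and 4.90% lower, so that 9 genes may well hold none. The measured genes beside the first cluster were Trim41, at -0.04, and Trim7, at least 1.59-fold lower. Gm12250 (Irgb10), beside Igtp, is itself a relative of the members and had no probe set of its own here. The measured genes beside Igtp and Irgm2 were Gemin5 (-0.38), Mrpl22 (-0.53), Zfp692 (-0.37) and Zfp672 (0.75). Beside Iigp1, Smim3 had 0.93, Dctn4 -0.19 and Rbm22 -0.08.

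**Figure D5:**
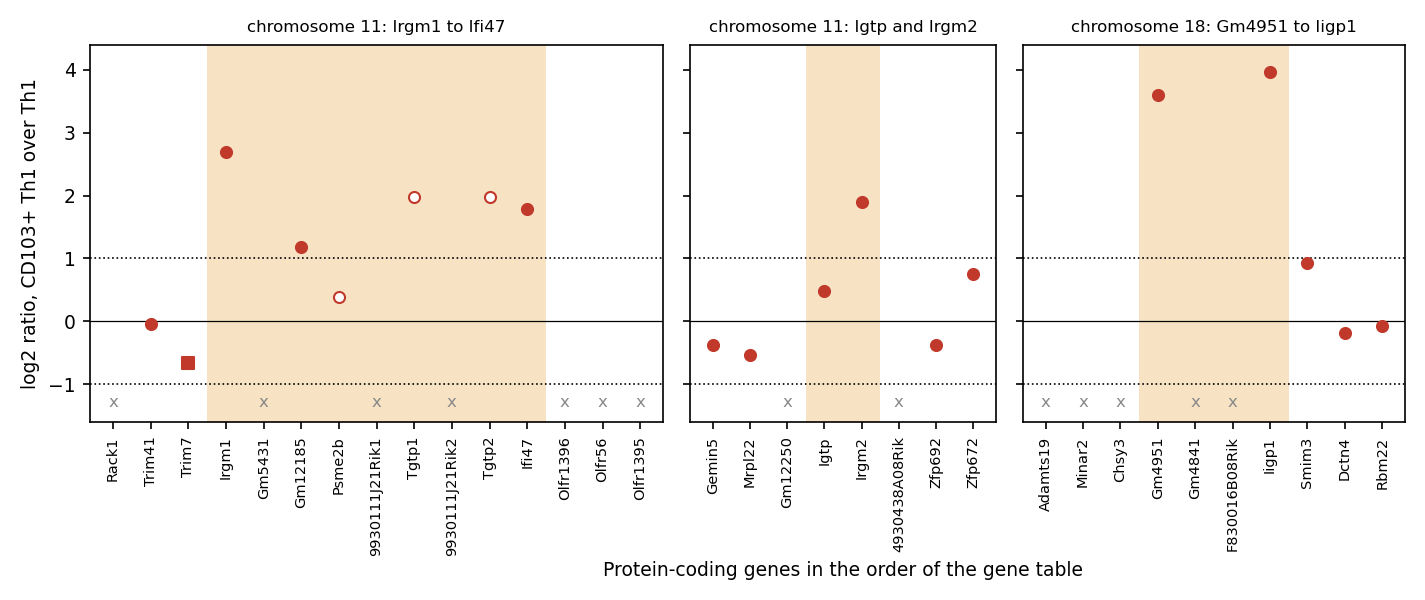
Log2 ratios of CD103+ Th1 over Th1 for protein-coding genes in the order of the gene table, with the clusters shaded, 3 flanking genes on each side, open circles for shared probe sets, a square for a bound, crosses for genes without a ratio here and dotted lines at 2-fold. Inside the shaded clusters Iigp1 reaches 3.97 and Igtp 0.48, while the flanking genes run from -0.67 to 0.93.

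Markers of other cells that carry these GTPases were read beside these results. Of 10 macrophage and monocyte markers 5 were under the floor on both arrays, among them Lyz2, Cd14 and Itgam. Of the 5 measured, 4 had log2 ratios below 0: Cd68, 2.25-fold lower, Csf1r, 1.59-fold lower, and Adgre1 and Fcgr1. The ratios of Adgre1 and Fcgr1, -0.01 and -0.02, were bounds. Their Th1 signals of 79.1 and 79.4 lay just above the floor, and they show no clear direction. The median of the 5 was -0.02. Mpeg1, with 660 against 5.75, was higher by at least 8.41-fold. The 5 signals summed to 1007 in CD103+ Th1 against 584 in Th1, and the higher sum rested on Mpeg1 alone. Of 8 dendritic cell markers 6 were measured, with H2-Aa at least 10.2-fold higher, Cd74 2.54-fold higher and H2-Ab1 2.14-fold lower. Itgax was under the floor. The signals of the 6 measured summed to 2976 in CD103+ Th1 against 3479 in Th1. The lower sum rested on H2-Ab1 alone, with 1423 against 3043. The CD8 T cell markers Cd8a and Cd8b1 were 4.41-fold and 2.28-fold higher, with summed signals of 3647 and 1163. The 5 Cd8a probe sets had log2 ratios from 0.24 to 2.16. All 3 measured NK cell markers were higher: Eomes 3.52-fold, Klre1 2.28-fold and Fcer1g 1.55-fold, with a median log2 ratio of 1.19 and summed signals of 4435 and 1476. Ncr1 and Klra8 were under the floor. Of 6 B cell markers with an own probe set, Cd79a, Ms4a1 and Pax5 were under the floor. Of the 3 measured, Cd79b was at least 3.11-fold higher, Cd22 had a log2 ratio of 0.27 and Blk -0.25. All granulocyte and erythroid markers with an own probe set were under the floor. The part of such cells in the GTPase signals was not tested.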

How the data were processed

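Total RNA was labelled with biotin by in vitro transcription and hybridised to 1 array per culture, per the labels' protocols. The authors deposited linear signal intensities per probe set, and the submitters' processing notes name GCOS, with no version; its scaling target is not given in the sources used here. Gene names came from the platform annotation, updated by gene identifier to the GRCm38.p6 gene table: of 45037, 34945 had 1 gene, 932 several and 9160 none listed. No further scaling was applied. Signals under the floor, the median of 78.5, were set to it. Each gene was represented by its brightest probe set (mean log2 signal after flooring), and the log2 ratio of CD103+ Th1 over Th1 was computed with Python 3.11.15 and pandas 2.3.3. A difference was counted at 2-fold. The number of arrays, 1 per group, limits the precision and allows no test.

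Named genes were all members, all relatives and guanylate-binding proteins with a named probe set, all measured signalling genes, up to 4 genes of each other list by absolute ratio, the 8 genes nearest the members' median and 3 flanking genes on each side of a cluster. Genes named with the motif pair, B2m, and the cell markers singled out were chosen after their values were seen. The members and lists were chosen with earlier results of these data known. Motifs were searched in RefSeq promoter windows. The calculation was tested on simulated data. Alternatives covered scaling, the floor, the probe set per gene and the threshold.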

Additional observations from a re-analysis of the deposited data

How the results depend on the processing

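Of 12 alternatives 10 give a ratio. Under these the median log2 ratio of the members stayed between 1.88 and 1.94, and each member kept its side of the 2-fold threshold under every scaling, floor and probe set choice. Their ratios ranged from 3.94 to 4.44 for Iigp1, 2.67 to 2.71 for Irgm1, 1.88 to 1.91 for Irgm2, 1.77 to 1.80 for Ifi47 and 0.48 to 0.54 for Igtp. The count of members at least 2-fold higher was 4, and 5 with the shared probe set, which was added after seeing the data. At 4-fold it was 2. With 1 array per group and no spread between replicates, a ratio was taken as moved when it differed by over 1.5-fold.

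Counts over all measured genes depended on the floor and the threshold. From 569 higher and 549 lower they went to 986 and 1234 with the floor at the 25th percentile, 268 and 199 at the 75th, 1400 and 1509 at 1.5-fold, and 109 and 86 at 4-fold. For the 6 interferon lists the count of 11 higher was 7 with the floor at the 75th percentile or without suffixed probe sets. Both of these settings left fewer genes of the lists measured. The count was 21 at 1.5-fold and 2 at 4-fold. The count of 1 lower was 2 at 1.5-fold. Their median log2 ratio stayed between 0.53 and 0.59. Among single lists, the median of the other immunity-related GTPases went from 1.18 to 2.69 with the floor at the 75th percentile, where 1 gene was left. Without suffixed probe sets the median of the guanylate-binding and Mx proteins went from 0.54 to 1.46 and that of the regulatory factors from 0.97 to 0.19, with 5 and 6 genes measured. The median of the interferon ligands turned from -1.65 over 2 measured genes to 0.07 with the floor at the 25th percentile, where more of them were measured. No paired analysis was possible because each group has 1 array and no result comes from a test.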
